A study of Mus musculus with 2 samples.

Results

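The cells described here are bone marrow cells that carry transcripts of both Flt3, the receptor tyrosine kinase of early lymphoid and multipotent progenitors, and Dntt, the template-independent DNA polymerase that adds nucleotides at the joints of antigen receptor genes. They were chosen on raw counts of unique molecular identifiers (UMIs, which count captured RNA molecules): at least 1 UMI of Flt3 and of Dntt, at most 3 UMIs of Cd79a and Vpreb3 together, fewer than 10 of Vpreb1, Vpreb3, Igll1 and Ebf1 together, and fewer than 2 of Ly6d, Blnk and Ebf1 together. The limits on the last 3 sums remove cells that have gone further into the B lineage. Of 11214 kept cells, 413 met the rule, 271 of 6375 in the naive library and 142 of 4839 in the Listeria library.

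The study compared marrow cells labelled as haematopoietic stem cells (HSCs) by droplet single-cell RNA sequencing. The naive library came from untreated wild-type C57BL/6J mice and the other library from wild-type C57BL/6J mice challenged with Listeria monocytogenes, an intracellular bacterium, and taken 6 weeks after the challenge. For both libraries the labels give an age of 6 to 8 weeks and the marrow of femora and tibiae. How many mice were pooled and which surface markers were sorted is not given in the sources used here. The labels call both libraries wild type, but the Listeria files carry a name with a knockout in it, and no targeted gene is named that could be checked. Each condition is 1 library, so every difference between them compares 2 libraries and not 2 conditions, and no difference was tested. All intervals are at the 95% level and take in counting error alone.

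Lymphoid-primed progenitors are the stage at which a multipotent cell has switched on lymphoid transcripts without being committed to the B or T lineage. FLT3 signalling supports their growth, regulators such as SATB1, Ikaros (Ikzf1) and MEF2C support lymphoid gene expression, and the same cells can still give rise to dendritic and myeloid cells while having largely lost the megakaryocyte and erythrocyte programme. Dntt is switched on before the recombination genes Rag1 and Rag2, and B-lineage commitment follows with Ebf1, Ly6d and Cd79a.

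The kept cells held 2500 or more UMIs, 500 or more genes and at most 10% mitochondrial UMIs, with a median of 6972 (naive) and 7239 (Listeria) UMIs. The Flt3 Dntt cells had medians of 6905 and 7542.5 UMIs and summed to 2075480 and 1148311 UMIs. Of all kept cells, 25.7% (naive) and 36.7% (Listeria) met a stem cell rule (Hlf and Mecom together at least 2 UMIs, no Flt3 and no Dntt). Failing that rule does not show that a cell is no stem cell, since both genes are sparse. The libraries shared 14 barcodes among kept cells, where 4.54 are expected from the size of the barcode list, and 2 Listeria Flt3 Dntt cells and no naive one had such a barcode.

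Both genes of the rule were sparse. In the naive library 651 cells had a UMI of Flt3 and of Dntt, and the limits removed 282 for Cd79a and Vpreb3, 2 for the pre-B sum and 96 for Ly6d, Blnk and Ebf1. In the Listeria library the rule began with 230 cells and removed 75, 1 and 12. Dntt rested on a single UMI in 137 naive cells (50.6%) and 62 Listeria cells (43.7%), on 2 to 3 UMIs in 56 and 36 cells, and on 4 or more in 78 and 44 cells, with a highest value of 32 (naive) and 34 (Listeria). Just inside the limit, 51 naive and 11 Listeria cells had a Ly6d, Blnk and Ebf1 sum of 1. Just outside it, 18 and 4 cells had a sum of 2. A further 64 naive and 33 Listeria cells with Dntt and at least 2 UMIs of Cd34 lay outside because Flt3 was at 0.

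Droplets also capture free RNA, so the share of Dntt-positive cells was read against megakaryocyte-lineage cells (Pf4, Gp9, Gp1bb and Itga2b together at least 6 UMIs), which should lack Dntt. Within the same B-lineage limits, 13 of 217 naive megakaryocyte-lineage cells had a Dntt UMI (5.99%, Clopper-Pearson interval 3.23 to 10.0) and 3 of 293 Listeria ones (1.02%, 0.212 to 2.96), at median depths of 10376 and 10919 UMIs. Among Flt3-positive cells within the limits the shares were 20.9% (naive) and 14.5% (Listeria). At the megakaryocyte-lineage shares, 77.5 of the 1294 naive and 10.0 of the 978 Listeria Flt3 cells would have had a Dntt UMI. At most 1 megakaryocyte-lineage cell per library had 2 or more Dntt UMIs. The background share was thus the higher one in the naive library.

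**Figure D1:**
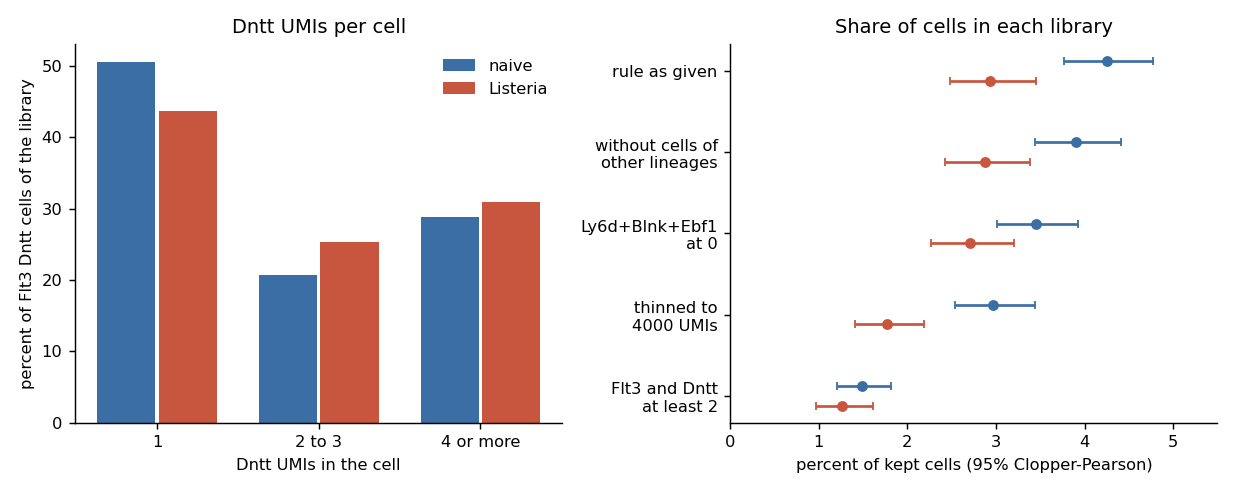
Left, bars give the percent of each library's Flt3 Dntt cells by the number of Dntt UMIs in the cell. Right, points give the percent of kept cells that met the rule or a changed rule, with 95% Clopper-Pearson intervals. The naive share was 4.25% and the Listeria share 2.93% under the rule as given, and 1.49% and 1.26% when Flt3 and Dntt each needed 2 UMIs.

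The Flt3 Dntt cells made up 4.25% of naive cells (3.77 to 4.78) and 2.93% of Listeria cells (2.48 to 3.45), 1.45 times as much in the naive library. The intervals did not overlap, but they do not take in the Dntt background. At the megakaryocyte-lineage shares that background comes to 77.5 naive and 10.0 Listeria cells, and its part in the ratio was not tested. With at least 2 UMIs of each gene 95 naive and 61 Listeria cells were left, at 1.49% (1.21 to 1.82) and 1.26% (0.966 to 1.62), and those intervals overlapped. The ratio of the shares was 1.18 under that stricter rule and 1.68 when all cells were thinned to 4000 UMIs before the rule was applied. The next step of the lineage, cells that met the rule except for a Ly6d, Blnk and Ebf1 sum of 2 or more, made up 1.51% of the naive cells (96 cells) and 0.248% of the Listeria cells (12 cells).

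The first comparison asked how the Flt3 Dntt cells differ from other progenitors in the same library. The comparison cells had at least 2 UMIs of Cd34, a sialomucin of stem and progenitor cells, and no Dntt (1228 naive and 1308 Listeria cells). Levels are in CPM, the UMIs of a gene per 1000000 UMIs summed over the cells of a group, and a gene was counted as different when its ratio passed 1.5-fold in the same direction in both libraries. Of 4736 genes with enough UMIs, 119 were higher (2.51%) and 113 lower (2.39%) in the Flt3 Dntt cells. The median log2 ratio over all of these genes was -0.01 (naive) and -0.05 (Listeria). The cells of both groups were picked by their own RNA, so these are descriptions of the cells and not tests. The count minimum is a mean over both groups, so a gene that is low in 1 group could enter through the other, where it is high. Counts within a list are partly set by that filter.

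Satb1 and Wfdc17 came with the label as markers of these cells, so their levels describe the cells and do not check the label. Satb1, a chromatin organiser needed for lymphoid development (ENSMUSG00000023927, chr17:51736187-51833290 in mm10), stood at 153 CPM (136 to 171) in naive and 162 CPM (139.5 to 187) in Listeria Flt3 Dntt cells. The Cd34 progenitors had 41.9 and 35.6 CPM, which gives log2 ratios of 1.87 (1.65 to 2.08) and 2.19 (1.93 to 2.44). Satb1 was thus nearly the same in the Flt3 Dntt cells of both libraries and several-fold above the other progenitors in each. Wfdc17, a secreted protein with a WAP domain (ENSMUSG00000069792, chr11:83703991-83706268), stood at 119 and 169.8 CPM against 25.8 and 17.8, log2 ratios of 2.20 and 3.25. After every cell was thinned to 4000 UMIs, 42.7% of naive and 51.1% of Listeria Flt3 Dntt cells had a Satb1 UMI, against 14.1% and 13.2% of Cd34 progenitors and 3.07% and 1.71% of megakaryocyte-lineage cells. Without thinning the Flt3 Dntt shares were 59.8% and 66.2%. The megakaryocyte-lineage share is the background, and those cells are the deeper ones, with medians of 10579.5 and 10926 UMIs before thinning.

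**Figure D2:**
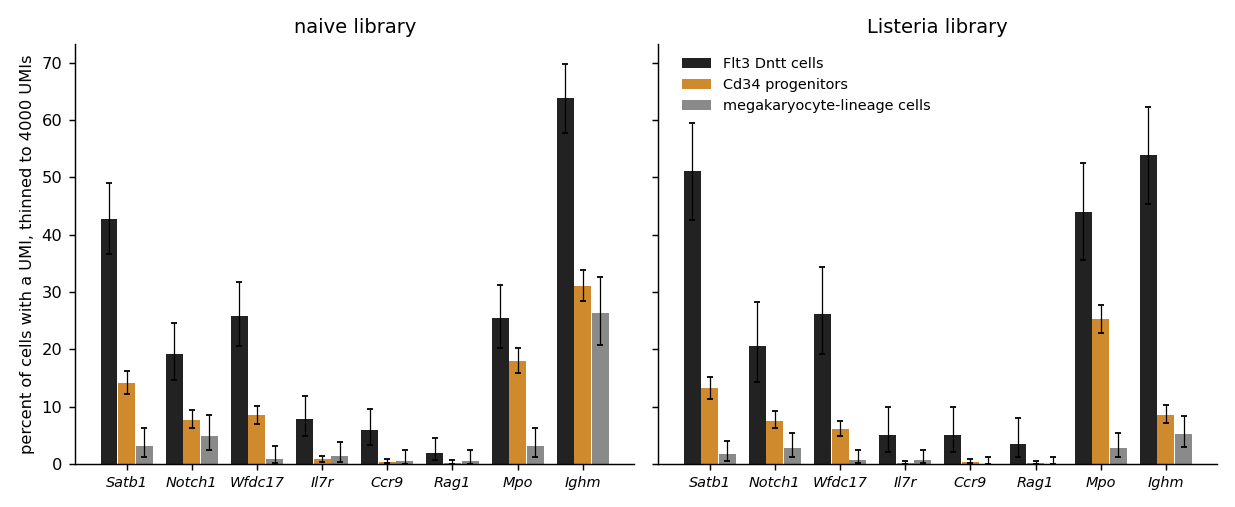
Bars give the percent of cells with at least 1 UMI of a gene after thinning each cell to 4000 UMIs, for Flt3 Dntt cells, Cd34 progenitors without Dntt and megakaryocyte-lineage cells of each library, with 95% Clopper-Pearson intervals. Satb1 was detected in 42.7% of naive and 51.1% of Listeria Flt3 Dntt cells, and Ighm was also detected in 26.3% of naive megakaryocyte-lineage cells.

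Of the 29 genes of the lymphoid priming list, 20 had enough UMIs, 14 were higher than in the Cd34 progenitors and none was lower. The medians were 0.90 (naive) and 0.75 (Listeria) on the log2 scale. Over all genes 2.51% were higher and 2.39% lower. Satb1 and Wfdc17, which came with the label, are counted among the 14 and in the medians. The higher genes included Notch1, the receptor whose signal directs T-lineage entry, at 73.2 and 67.9 CPM against 21.8 and 19.04. Notch1 was under 25 CPM in the Cd34 progenitors of both libraries, so it entered the count only through the Flt3 Dntt cells. Lsp1, a leukocyte actin-binding protein, was also higher, at 298 and 229 CPM against 117 and 121. Cd52, Cd53, Cd37, Cd48, Emb, Tespa1, Mef2c and Il12a were among the other higher members. Members that stayed within 1.5-fold included Cd27 at 95.4 and 125 CPM and Bcl11a at 95.9 and 103.

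Ighm, the constant region of the antibody mu heavy chain, is transcribed in unrearranged form in early lymphoid cells. It stood at 309 and 224 CPM against 100.2 and 131 in the Cd34 progenitors. Its background was high in the naive library, where 26.3% of thinned megakaryocyte-lineage cells had an Ighm UMI against 63.9% of Flt3 Dntt cells. In the Listeria library the shares were 5.12% and 53.9%. A single Listeria Cd34 progenitor held 174 Ighm UMIs after thinning.

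The hallmark genes of the next lymphoid step were low and fell under the count minimum, so they are given as values. Il7r, the interleukin 7 receptor on which B and T precursors depend, had 29.9 and 19.2 CPM in the Flt3 Dntt cells and 3.23 and 0.882 in the Cd34 progenitors, and was seen in 11.4% of naive and 7.75% of Listeria cells, beside 2.61% and 1.02% of the deeper megakaryocyte-lineage cells. Ccr9, a chemokine receptor for thymus homing, had 31.8 and 10.5 CPM against 1.11 and 1.76. Part of the Il7r and Ccr9 UMIs lay in cells that carry genes of other lineages, as described below. Without those cells 35 of 62 naive Il7r UMIs and 37 of 66 naive Ccr9 UMIs were left. In the Listeria library 15 of 22 and 12 of 12 were left. Both genes stayed above their CPM in the Cd34 progenitors. Rag1, which cuts antigen receptor genes together with Rag2, was at 5.30 and 4.35 CPM on 11 and 5 UMIs. The cells thus carried Dntt with very little Rag1, and most of them had no Il7r UMI.

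The promoters of Flt3 and Dntt, which chose the cells, and of Satb1 and Wfdc17, the other markers that came with the label, are shown as reference sequence, because these are the regulatory windows of the genes that name the cells. Each is the 250 bases before a RefSeq transcription start of build GRCm38.p6, written 5′ to 3′ on the gene's strand: Flt3 (minus strand, chr5:147400490-147400739), Dntt (plus strand, chr19:41029025-41029274), the first of 5 listed starts of Satb1 (minus strand, chr17:51833291-51833540) and Wfdc17 (plus strand, chr11:83703806-83704055). Both strands were searched for CAGGTG, the E-box bound by E proteins, TGTGGT, a RUNX motif, TGGGAA (Ikaros) and GAGGAAGT (PU.1), and capitals mark a match.
Flt3: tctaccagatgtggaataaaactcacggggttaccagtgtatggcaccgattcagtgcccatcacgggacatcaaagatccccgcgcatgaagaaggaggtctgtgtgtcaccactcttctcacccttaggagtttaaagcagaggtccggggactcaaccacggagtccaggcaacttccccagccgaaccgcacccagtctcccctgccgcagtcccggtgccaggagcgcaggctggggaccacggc
Dntt: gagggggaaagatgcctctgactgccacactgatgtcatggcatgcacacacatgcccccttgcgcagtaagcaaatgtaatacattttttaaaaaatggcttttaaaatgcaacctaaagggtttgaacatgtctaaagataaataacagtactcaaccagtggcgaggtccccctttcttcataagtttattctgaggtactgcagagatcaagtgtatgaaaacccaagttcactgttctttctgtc
Satb1: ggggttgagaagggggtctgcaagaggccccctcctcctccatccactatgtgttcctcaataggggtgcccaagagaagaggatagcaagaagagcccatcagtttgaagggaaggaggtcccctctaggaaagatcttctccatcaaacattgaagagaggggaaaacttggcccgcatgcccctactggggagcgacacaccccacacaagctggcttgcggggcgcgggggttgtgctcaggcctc
Wfdc17: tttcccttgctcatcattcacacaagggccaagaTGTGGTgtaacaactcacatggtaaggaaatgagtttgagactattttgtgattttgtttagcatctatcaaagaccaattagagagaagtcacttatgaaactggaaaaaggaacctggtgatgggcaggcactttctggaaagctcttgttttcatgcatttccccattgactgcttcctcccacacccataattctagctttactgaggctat
The windows of Flt3, Dntt and the first Satb1 start held none of the 4 motifs, and in the Wfdc17 window TGTGGT lay 216 bases before the start. Of the other Satb1 starts, the third had CAGGTG on the opposite strand 172 bases before it, the fifth had TGGGAA on the opposite strand 70 bases before it, and the rest had no match. Among 32851 windows of the same length, 17.2% held CAGGTG, 21.6% TGGGAA, 14.0% TGTGGT and 2.44% GAGGAAGT.

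Genes were ranked by the smaller of the 2 libraries' absolute log2 ratios, and the first 2 were genes that the Cd34 progenitors nearly lacked and that passed the count minimum only through the Flt3 Dntt cells. Cox6a2 (an isoform of a cytochrome c oxidase subunit, ENSMUSG00000030785, chr7:128205435-128206387) stood at 71.3 CPM (60.3 to 83.8) in naive Flt3 Dntt cells and at 50.5 CPM (38.4 to 65.3) in Listeria ones, against 0.505 and 0.529. Cmah, which makes the sialic acid Neu5Gc (ENSMUSG00000016756, chr13:24327404-24477377), stood at 73.2 and 58.3 CPM against 1.41 and 0.793. The Cd34 progenitor values rest on 5 and 6 UMIs of Cox6a2 and on 14 and 9 of Cmah, so the ratios of these genes are large with wide intervals: 7.14 (5.89 to 8.79) and 6.58 (5.37 to 8.08) for Cox6a2 on the log2 scale, 5.70 (4.90 to 6.60) and 6.20 (5.19 to 7.39) for Cmah. The next by that ranking were Ncf1, a subunit of the phagocyte oxidase (68.4 and 71.4 CPM against 12.4 and 11.5), and Ccl3, a chemokine (168 and 257 against 32.4 and 54.8). Ncf1 was likewise under 25 CPM in the Cd34 progenitors of both libraries, so it too entered only through the Flt3 Dntt cells. Wfdc17 was under 25 CPM in the Listeria Cd34 progenitors. Sdc4 (a heparan sulfate proteoglycan), Cd69 (an activation antigen that retains lymphocytes in tissue), Camk1d, Emp1, Il18rap, Tpm4, H2-Ob and Ctss completed the 15 highest with Wfdc17, Satb1 and Notch1. By the mean of both libraries Wfdc17, at 2.73, came before Ncf1, at 2.55, and Ccl3, at 2.30. The log2 ratios of these 8 genes ran from 1.59 for Ctss in the Listeria library to 2.43 for Cd69 in the same library.

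**Figure D3:**
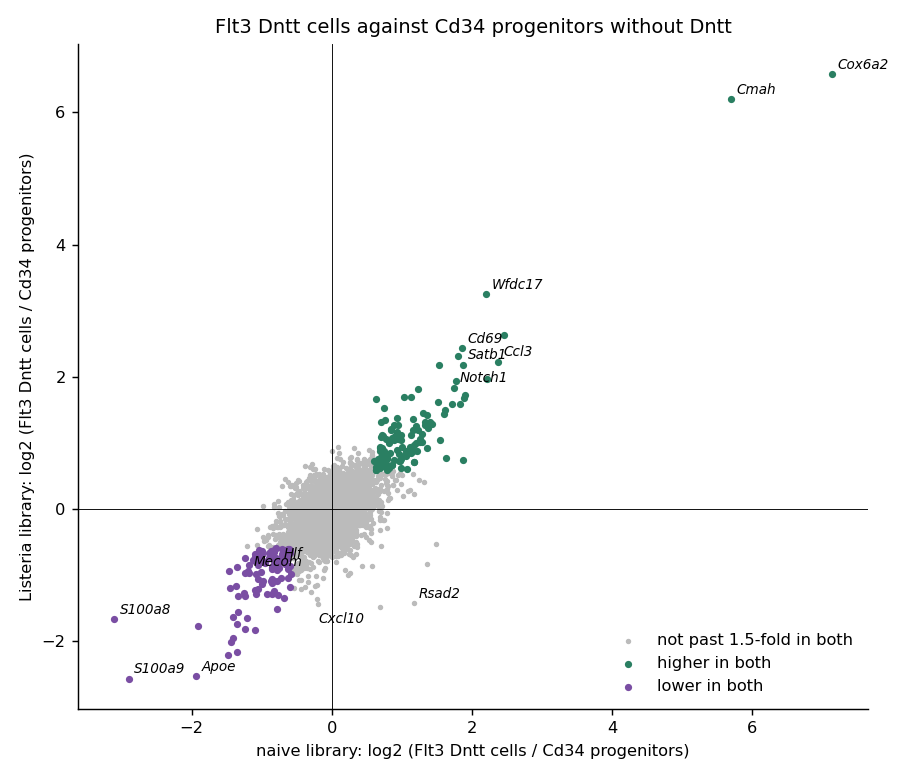
Each point is 1 of 4736 genes, placed by its log2 ratio of Flt3 Dntt cells over Cd34 progenitors without Dntt in the naive (x axis) and Listeria (y axis) library. The 119 green genes were over 1.5-fold higher and the 113 purple genes over 1.5-fold lower in both libraries. Cox6a2 and Cmah stand apart at the top right, and S100a8, S100a9 and Apoe lie at the bottom left.

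Among 25 measured regulators of lymphoid fate, 5 were higher and 1 lower, beside 2.51% and 2.39% of all genes. Ikzf1, which encodes Ikaros, stood at 164 and 191 CPM against 95.3 and 113. Mef2c, a MADS-box factor that favours lymphoid over myeloid fate, stood at 817 and 785 CPM against 504 and 474, and Tcf4, an E protein, at 214 and 265 against 133 and 172. Id2, an inhibitor of E proteins, was also higher (75.2 and 38.3 against 24.8 and 14.1). It was under 25 CPM in the Cd34 progenitors of both libraries and so entered the count only through the Flt3 Dntt cells. Hes1, a Notch target, was lower (28.4 and 20.9 against 73.6 and 46.9), so Notch1 and Hes1 lay in opposite directions. The factors that nearly all blood progenitors carry were level: Spi1 had log2 ratios of 0.09 and -0.03, Runx1 0.08 and 0.05, Myb -0.03 and -0.08, and Tcf3, which encodes E2A, 0.16 and 0.12.

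Most genes of B and T commitment were too low to compare. Of 25 genes of the B-lineage list, 5 had enough UMIs and none passed 1.5-fold in both libraries. Of the T and innate list 2 of 22 were measurable and neither passed. With 2.51% of all genes higher and 2.39% lower, a count of 0 among so few genes says nothing particular to these lists. In the recombination list 3 of 13 were measurable and Xrcc6, the Ku70 subunit of DNA end joining, was higher at 60.7 and 73.2 CPM against 27.8 and 33.5. In the FLT3 and interleukin 7 signalling list 1 of 18 was higher, Bcl2, the survival factor, at 102 and 87.96 CPM against 45.2 and 53.5.

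Genes of surface proteins lay in both directions, with 7 of 17 measured members higher and 2 lower, beside 2.51% and 2.39% of all genes. Fewer of them were higher against Cd34 progenitors with Flt3, as given below. Besides the members named above, Cd44 and Itga4, an adhesion receptor for hyaluronan and an integrin chain of marrow retention, were higher. Cd9, a tetraspanin of stem and megakaryocyte cells, stood at 31.8 and 42.7 CPM against 75.8 and 103, and Cd63 was the other lower member. Of 18 multipotent progenitor genes 6 were higher and 2 lower. Plac8 stood at 1524 and 1225 CPM against 585 and 526, and H2afy, which encodes the histone variant macroH2A1, at 2259.7 and 2571 against 959.6 and 1125. Ctla2a, a protease inhibitor abundant in stem cells, was lower at 2720.3 and 2329.5 CPM against 4894 and 4306.

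Stem cell and megakaryocyte-erythroid genes were lower. Of 14 measured stem cell identity genes 7 were lower and none higher, with medians of -0.76 and -0.61. Over all genes 2.39% were lower and 2.51% higher. Hlf, a transcription factor of long-term stem cells, stood at 149 and 160.2 CPM against 254 and 282. Mecom stood at 45.3 and 50.5 against 104 and 96.7. Procr, Mllt3 and Gata2 were among the other lower members, whereas Hoxa9 was level (0.02 and -0.15).

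Of 11 measured megakaryocyte-erythroid genes 9 were lower, beside 2.39% of all genes, with medians of -0.95 and -0.81. They included Apoe, the lipid carrier, at 93.5 and 55.7 CPM against 359 and 321, Itga2b, the platelet integrin chain, at 16.9 and 12.2 against 46.9 and 56.2, and Gata2, a factor shared with the stem cell list, at 61.7 and 70.5 against 169.9 and 135. Itga2b was under 25 CPM in the Flt3 Dntt cells of both libraries, so it entered the count only through the Cd34 progenitors. Tfrc, the transferrin receptor, was the 1 higher member. S100a8 and S100a9, the neutrophil calgranulins, ranked among the lowest genes, with S100a9 at 28.4 and 13.9 CPM against 213 and 82.3. The level of S100a9 in the comparison cells moved with the library, and it was 858 CPM in naive and 34.9 in Listeria megakaryocyte-lineage cells, and the part of free RNA or mixed droplets in these 2 genes was not tested.

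The myeloid list was mixed. Of 11 measured members, 2 were higher: Tyrobp, a signalling adaptor, at 151 and 104 CPM against 51.8 and 49.99, and Ccl9 at 47.2 and 58.3 against 29.1 and 23.5. Over all genes 2.51% were higher and 2.39% lower. Mpo, the myeloperoxidase of granulocyte precursors, stood at 119 and 216 CPM against 91.2 and 135, which passed 1.5-fold only in the Listeria library. After thinning, 25.5% of naive and 43.97% of Listeria Flt3 Dntt cells had an Mpo UMI. The thinned shares were 18.0% and 25.2% of Cd34 progenitors and 3.07% and 2.73% of megakaryocyte-lineage cells. Without thinning the Flt3 Dntt shares were 39.9% and 57.04%. Satb1 and Mpo were found together in some cells, counted without thinning, so deeper cells have both more often. Of the 162 naive cells with Satb1, 73 had Mpo (45.1%), and of the 109 without it, 35 (32.1%). In the Listeria library the counts were 56 of 94 (59.6%) and 25 of 48 (52.1%). With Il7r in place of Satb1, Mpo was in 13 of 31 naive cells with it (41.9%) and 95 of 240 without it (39.6%), and in 4 of 11 (36.4%) and 77 of 131 (58.8%) Listeria cells. Elane, the neutrophil elastase that follows Mpo in granulocyte precursors, had 4 UMIs in all naive Flt3 Dntt cells together and 2 in the Listeria ones. Clec12a, a myeloid lectin that was under the count minimum, stood at 27.9 and 49.6 CPM against 4.74 and 3.88.

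Of 8 measured dendritic cell genes 4 were higher (Tcf4, Cox6a2, Id2 and Cd74) and none lower, beside 2.51% and 2.39% of all genes. Cox6a2 and Id2 were under 25 CPM in the Cd34 progenitors of both libraries and so entered the count only through the Flt3 Dntt cells, where they are high. Irf8, which directs dendritic and monocyte fate, stood at 85.3 and 41.8 CPM against 11.3 and 8.02 but missed the count minimum. Here a few cells carried much of the signal. In the naive library 7 cells had 10 or more UMIs of H2-Aa, H2-Ab1 and H2-Eb1, the major histocompatibility complex (MHC) class II genes, 2 had 3 or more of Siglech, a plasmacytoid dendritic cell lectin, 3 had 6 or more megakaryocyte UMIs, 9 had 4 or more of the T cell genes Cd3d, Cd3e, Cd3g, Trbc1 and Trbc2, and 1 had 10 or more haemoglobin UMIs. These rules took 22 naive cells (8.12%) and 3 Listeria cells (2.11%), of which 14 and 3 had a single Dntt UMI. Whether they are mixed droplets or other cell types was not tested, and they were left out in an alternative chosen after seeing the data. Without them Cd74, the MHC class II invariant chain, was at 198 in place of 372 CPM (naive) and 147 in place of 165 CPM (Listeria), and 122 genes were higher and 126 lower than in the Cd34 progenitors, 115 and 108 of them shared with the lists above.

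The Flt3 Dntt cells also varied along Dntt itself. Cells with 1, with 2 to 3 and with 4 or more Dntt UMIs were set between the stem cells and the Ly6d-positive early lymphoid cells that lie just past the rule. Cox6a2 stood at 16.2, 51.6 and 174 CPM over the 3 classes in the naive library and at 3.92, 32.1 and 141 in the Listeria library. Ly6d-positive cells had 428 and 313 CPM. In both libraries Cox6a2 was thus higher in each class than in the one before it. Cmah did the same, with 28.6, 56.8 and 157 CPM (naive) and 1.96, 22.5 and 181 (Listeria). In the class with 1 Dntt UMI both genes had lower values in Listeria than in naive cells. Cells with more Dntt UMIs are also the cells least affected by free Dntt RNA, and the part of depth in this order was not tested.

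Notch1 ran from 45.7 through 87.8 to 109.7 CPM in the naive library. In the Listeria library it was 21.5, 32.1 and 175 CPM, so the step lay between the last 2 classes. Cd69 ran from 95.2 through 199 to 349.6 CPM (naive) and from 157 through 328 to 717 CPM (Listeria). Satb1 was 101, 214 and 201 CPM in the naive library, where the last 2 classes were level, and 95.97, 141 and 285 in the Listeria library. In both libraries Cox6a2, Cmah, Notch1 and Cd69 thus had their highest values in the class with 4 or more Dntt UMIs.

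Hlf went the other way, at 210.4, 132 and 59.6 CPM in the naive and 237, 138 and 61.3 in the Listeria library, from 358 and 361 in the stem cells. Mecom ended at 15.7 and 18.4 CPM in the Dntt-high cells. Kit, the stem cell factor receptor, ran from 223 to 84.6 CPM in the naive and from 239 to 119 in the Listeria library. The libraries followed the same course for these 3 genes.

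Wfdc17 and Ccl3 had their highest values inside the Flt3 Dntt cells and not at the Ly6d-positive step. Wfdc17 stood at 132 and 132 CPM in the upper Dntt classes of the naive library and at 234 and 282 in the Listeria library, against 57.6 and 31.3 in the Ly6d-positive cells. Mpo had lower values past the rule too, at 69.1 and 73.02 CPM. The 12 Listeria Ly6d-positive cells give wide intervals (6.45 to 91.4 CPM for Wfdc17). Of 3571 genes with enough UMIs, 120 (3.36%) were higher and 76 (2.13%) lower in the Flt3 Dntt than in the Ly6d-positive cells.

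**Figure D4:**
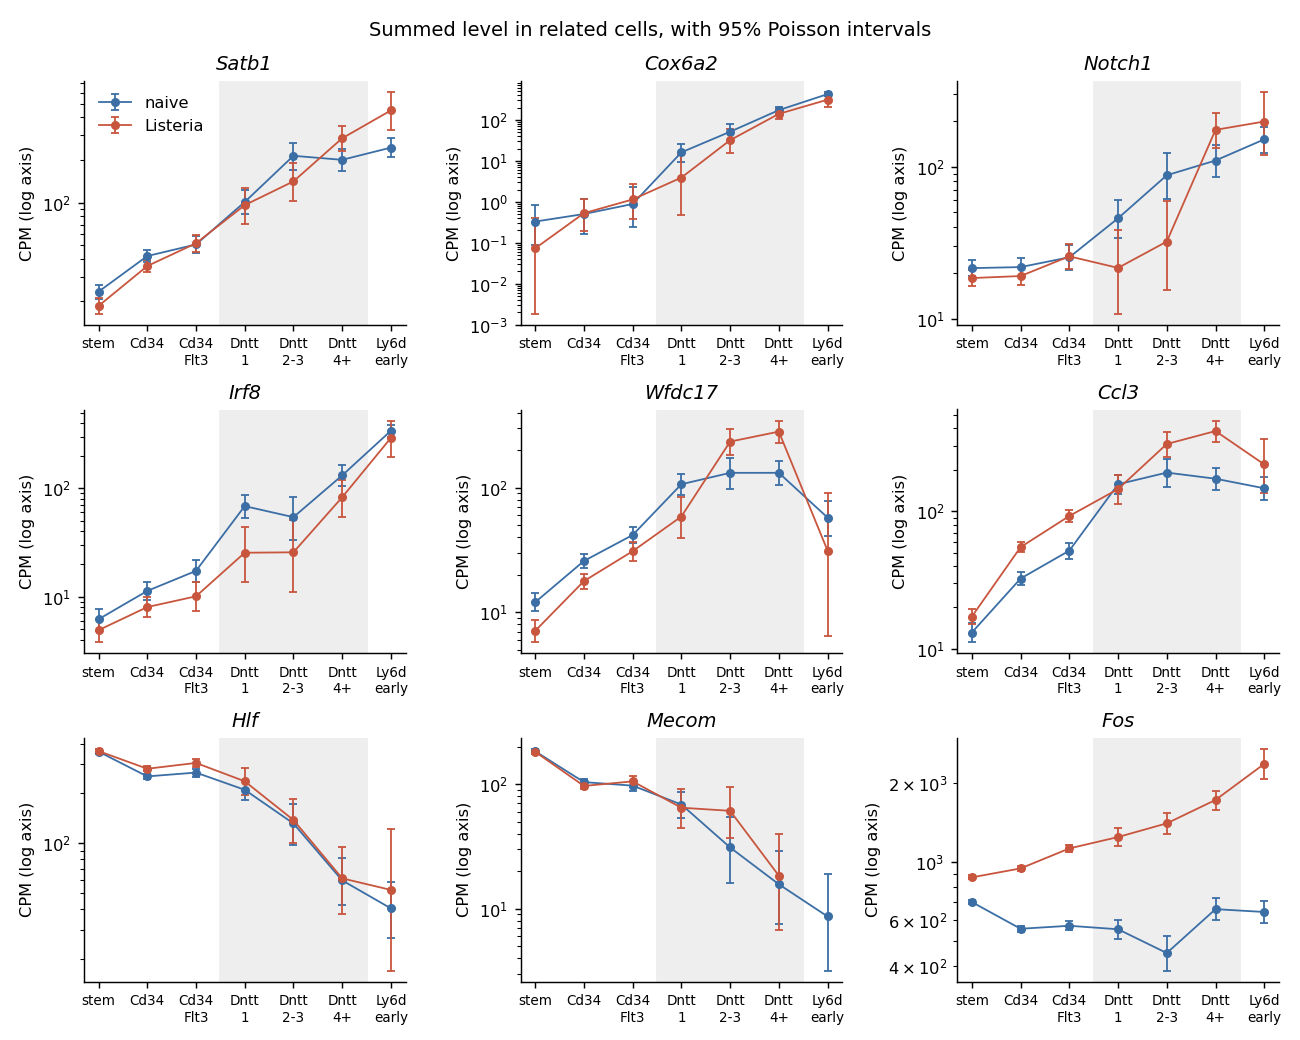
Points give the summed level of 9 genes in CPM on a log axis, with 95% Poisson intervals, in stem cells, Cd34 progenitors, Flt3-positive Cd34 progenitors, Flt3 Dntt cells by Dntt UMIs (grey band) and Ly6d-positive early lymphoid cells. Points at 0 are left out. Satb1, Cox6a2, Notch1 and Irf8 were higher to the right and Hlf and Mecom lower, Wfdc17 had its highest values in the grey band, and the summed level of Fos was higher in the Listeria library in every group plotted.

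Fewer genes differed when both groups carried Flt3. When the comparison was limited to Cd34 progenitors that also had Flt3 and lay within the B-lineage limits (540 naive and 488 Listeria cells), 90 genes (1.92%) were higher and 73 (1.56%) lower, of 4694. Of the first lists 79 and 70 genes stayed past 1.5-fold. In the lymphoid priming list 9 of 20 measured genes were higher, with Satb1 at log2 ratios of 1.59 and 1.65 and Notch1 at 1.53 and 1.40. In the stem cell list 7 of 14 were lower, and in the megakaryocyte-erythroid list 4 of 10. Of 18 measured surface protein genes 2 were higher and 3 lower.

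The share of cells with S-phase transcripts was lower among Flt3 Dntt cells than among Cd34 progenitors, with intervals that overlapped in the naive library and did not in the Listeria library. With 2 or more UMIs of the S-phase list after thinning, the share was 75.3% (69.5 to 80.5) of naive Flt3 Dntt cells and 81.6% (79.3 to 83.8) of naive Cd34 progenitors, and 68.8% (60.5 to 76.3) and 83.6% (81.5 to 85.6) in the Listeria library. For the G2 and M-phase list the shares were 89.0% and 85.6% in the naive and 82.3% and 88.1% in the Listeria library. Since most cells pass such a low limit, a limit of 10 UMIs was added after seeing the data. It was met for the S-phase list by 3.53% (1.63 to 6.59) of naive and 5.67% (2.48 to 10.9) of Listeria Flt3 Dntt cells, against 6.08% (4.78 to 7.59) and 13.7% (11.8 to 15.6) of Cd34 progenitors and 38.2% and 42.3% of megakaryocyte-lineage cells. Of 15 measured S-phase genes only Mcm3, a replicative helicase subunit, passed 1.5-fold in both libraries, at 48.2 and 73.2 CPM against 78.8 and 124. Of 9 measured G2 and M-phase genes none did. Such small counts say nothing particular to these lists, beside 2.51% of all genes higher and 2.39% lower.

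The second comparison set the Listeria against the naive library within the Flt3 Dntt cells. Of 4937 genes with enough UMIs, 282 (5.71%) were over 1.5-fold higher and 177 (3.59%) lower in the Listeria library. With TMM normalization in place of plain totals the numbers were 205 and 236, so the share of higher genes among those past the fold went from 61.4% to 46.5% and the balance of directions is not read as a result. In the Cd34 progenitors, which have more cells, 2.43% of 5060 genes were higher and 1.4% lower.

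Of 23 measured lymphoid priming genes none was higher and 2 were lower, beside 5.71% and 3.59% of all genes. Counts this small in a list of 23 say nothing particular to it. The median log2 ratio was 0.04 beside 0.06 over all genes. Satb1 had a ratio of 0.08 (-0.18 to 0.35) and Notch1 -0.11 (-0.52 to 0.29). Irf8 was lower at 41.8 against 85.3 CPM, -1.03 (-1.52 to -0.56), and Lax1, a lymphocyte adaptor, at 32.2 against 53.96 CPM. Without the cells of other lineages Irf8 was at -0.69 (-1.21 to -0.19). With 2 or more UMIs of Flt3 and Dntt it was at -0.87 (-1.51 to -0.27). After thinning, 16.9% of naive and 17.7% of Listeria Flt3 Dntt cells had an Irf8 UMI, so the lower sum came with no lower share of cells. Wfdc17 was at 0.51 (0.23 to 0.79), short of 1.5-fold, and at 0.81 (0.44 to 1.18) in cells with 2 or more UMIs of Flt3 and Dntt. Cd69 was higher, at 362 against 193 CPM, 0.91 (0.71 to 1.11), and Sdc4 lower, at 53.99 against 121 CPM, -1.17 (-1.59 to -0.76).

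Immediate early genes, the fast targets of growth factor, cytokine and stress signals, split in both directions. Of 30 measured, 6 were higher (Fos, Klf2, Zfp36, Dusp1, Egr1 and Rhob) and 5 lower (Jund, Atf3, Klf4, Btg1 and Socs3) in the Listeria library, with a median of 0.19. Over all genes 5.71% were higher and 3.59% lower, with a median of 0.06. Fos, a subunit of the AP-1 factor (ENSMUSG00000021250, chr12:85473890-85477273), stood at 567 CPM (535 to 600.0) in naive Flt3 Dntt cells and at 1420.3 CPM (1352 to 1491) in Listeria ones, a log2 ratio of 1.33 (1.22 to 1.44). After thinning, the median cell had 1 (naive) and 3 (Listeria) Fos UMIs. The difference was present in each Dntt class: 553 against 1242 CPM with 1 Dntt UMI, 449 against 1400.2 with 2 to 3, and 659.9 against 1719 with 4 or more. The summed level in the Cd34 progenitors differed in the same direction, with a log2 ratio of 0.76. Shares of cells did not all follow the summed level. After thinning a Fos UMI was found in 51.4% of naive and 69.5% of Listeria Flt3 Dntt cells, but in 52.9% and 52.3% of Cd34 progenitors and 55.1% and 45.6% of stem cells, so in those 2 other groups the higher sum came with no higher share of cells. Without thinning the Flt3 Dntt shares were 65.3% and 75.4%.

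Klf2, a factor of lymphocyte quiescence and migration, stood at 1269.7 against 628 CPM, 1.02 (0.91 to 1.12) beside 0.39 in the Cd34 progenitors. Zfp36, which destabilises inflammatory mRNAs, stood at 617 against 298 CPM, 1.05 (0.89 to 1.21) beside 0.48. Nr4a1 and Junb lay on opposite sides of 0 in the 2 kinds of cells, at 0.40 and 0.28 in the Flt3 Dntt cells and -0.47 and -0.27 in the Cd34 progenitors. The lower genes were shared: Jund was at -0.62 and -0.89, Atf3 at -0.70 and -0.85 and Klf4 at -0.65 and -0.93. In the Cd34 progenitors 1 immediate early gene was higher and 8 lower, with a median of -0.21. Over all genes of those cells 2.43% were higher and 1.4% lower, with a median of 0.10. The difference between the 2 kinds of cells was not tested. Dissociation and handling time cannot be told apart from the challenge here, since each condition is 1 library.

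Cdkn1a, which encodes the cell cycle inhibitor p21, was lower in the Listeria library at 149 against 337 CPM, a log2 ratio of -1.18 (-1.43 to -0.94) and of -1.15 in the Cd34 progenitors. Of 13 measured quiescence genes it was 1 of 4 lower ones, and Klf2 was the 1 higher, beside 3.59% lower and 5.71% higher over all genes. Mpo was higher at 0.86 (0.60 to 1.12), in the direction of the Cd34 progenitors (0.57), and Ctsg and Clec12a were the other higher myeloid members of 15 measured. Igkc, the antibody kappa chain, had the lowest ratio, -2.99 (-3.58 to -2.46), and -3.18 in the Cd34 progenitors. Its level in megakaryocyte-lineage cells was 2035 CPM (naive) and 20.3 (Listeria), so this gene moved with the library in cells that should lack it.

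**Figure D5:**
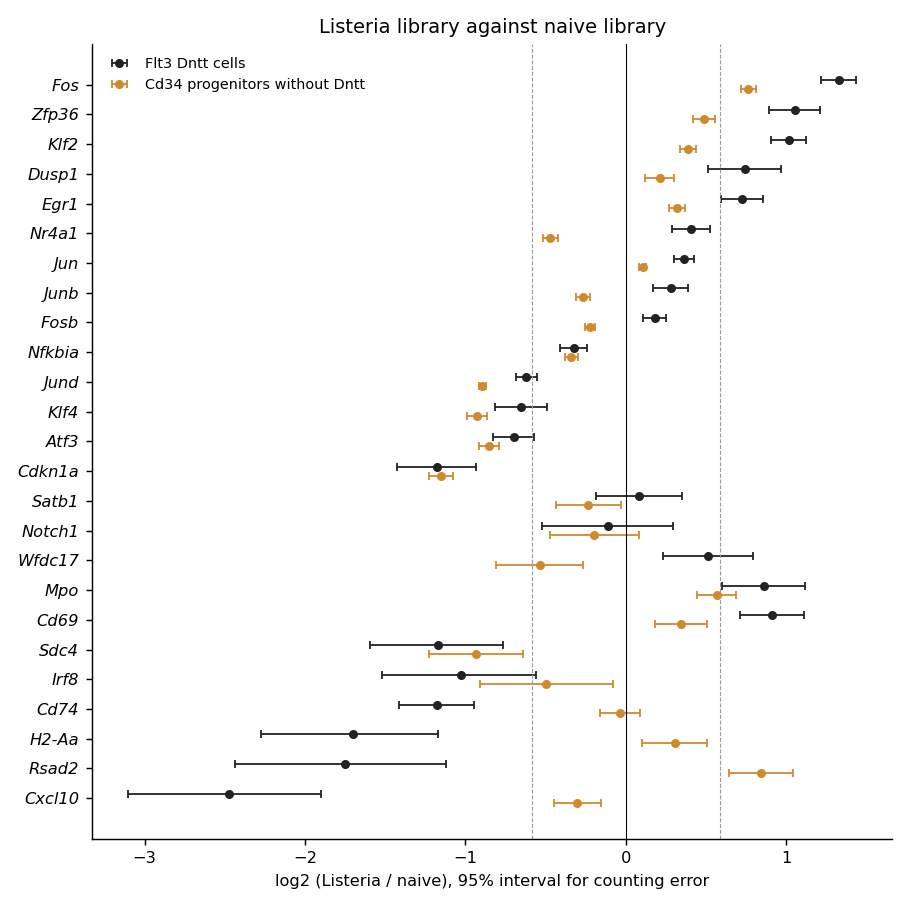
Points give log2 ratios, Listeria over naive, for 25 genes in Flt3 Dntt cells (black) and Cd34 progenitors (orange), with 95% intervals for counting error. Dashed lines mark 1.5-fold. Fos, Zfp36 and Klf2 lie to the right in both kinds of cells, Jund, Klf4, Atf3 and Cdkn1a to the left in both, and H2-Aa and Rsad2 on opposite sides.

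Dendritic and MHC class II genes were lower in the Listeria Flt3 Dntt cells, 6 of 10 and 4 of 7 measured, and none was higher. Over all genes 3.59% were lower. Both lists hold Cd74, H2-Aa, H2-Ab1 and H2-Eb1, so the counts overlap and are not separate results. H2-Aa stood at 29.6 against 96.4 CPM and Cd74 at 165 against 372 CPM, log2 ratios of -1.70 and -1.18. These moved with the cells that carry genes of other lineages: without those cells H2-Aa was at 28.8 against 27.7 CPM, a ratio of 0.058 (-0.63 to 0.72), and Cd74 at -0.43 (-0.70 to -0.16). In cells with 2 or more UMIs of Flt3 and Dntt, H2-Aa was at 0.21 (-0.90 to 1.28) and Cd74 at -0.10 (-0.47 to 0.27). T cell genes rested on few cells. Trbc1 stood at 16.5 against 47.7 CPM, all 19 Listeria UMIs came from 1 cell, and without the cells of other lineages 13 naive UMIs and no Listeria UMI were left. Tcf7, a T-lineage factor, had UMIs in 33 naive and 4 Listeria cells. Its ratio was -1.92 (-2.85 to -1.10) without the cells of other lineages and -1.04 (-2.31 to 0.08) in cells with 2 or more UMIs of Flt3 and Dntt, an interval that takes in 0.

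Interferon genes were few past the fold, beside 5.71% of all genes higher and 3.59% lower and a median of 0.06 over all genes. Of 13 measured type I interferon genes none was higher and 2 were lower, Rsad2 and Ifi27l2a, with a median of -0.11, and of 10 interferon gamma genes 1 was lower, Cxcl10, with a median of 0.08. Rsad2, an antiviral enzyme, stood at 20.9 against 70.3 CPM, -1.75 (-2.44 to -1.12), from 40 naive and 10 Listeria cells with a UMI, and 1 naive cell held 26.7% of the naive UMIs. Cxcl10, a chemokine induced by interferon, stood at 23.5 against 131 CPM, -2.47 (-3.10 to -1.90). In cells with 2 or more UMIs of Flt3 and Dntt the ratios were -0.09 (-1.46 to 1.20) for Rsad2 and 0.28 (-0.84 to 1.37) for Cxcl10, so neither gene differed beyond its counting error there. Irf9, a factor of the interferon response, was level at -0.12.

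The remaining higher genes named by rank were Mpp5, Wwp1, Fam210a, Sash3, Nfe2, Nop10, Cox7b, Armc1 and Elovl6. Mpp5, a scaffold protein of cell polarity, stood at 42.7 against 15.4 CPM, 1.47 (0.80 to 2.16), on 49 and 32 UMIs. Cox7b, a cytochrome c oxidase subunit, had log2 ratios of 1.09 in the Flt3 Dntt cells and 1.68 in the Cd34 progenitors. Among the lower ones, N4bp3 stood at 41.8 against 116 CPM, Sgk1, a serum-induced kinase, at 17.4 against 48.7, and Gadd45g, a stress-response gene, at 16.5 against 47.2, and all 3 were also lower in the Listeria Cd34 progenitors (-0.86, -0.76 and -1.12).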

How the data were processed

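Raw UMI counts per gene and barcode were taken as deposited. Per the submitters' processing notes the authors made them with Cell Ranger 3.0.2 and build mm10, and other settings are not given in the sources used here. The matrices hold all barcodes, so cells were selected again: at least 2500 UMIs, at least 500 genes and at most 10% mitochondrial UMIs, which kept 6375 of the naive and 4839 of the Listeria barcodes, out of libraries of 64619150 and 43895966 UMIs. Doublets were not removed, and a run without the 5% of cells with the most UMIs was an alternative.

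Counts were summed over the cells of a group. With 1 library per condition no count test was possible, so no p-value is given. Intervals are exact Poisson for CPM, exact binomial for the split of UMIs behind a log2 ratio and Clopper-Pearson for shares, from SciPy 1.17.1 (Python 3.11.15, NumPy 2.4.6, pandas 2.3.3), and they treat UMIs as independent. A gene entered a comparison with a mean of at least 25 CPM over the compared groups and 50 UMIs in them, within each library for comparisons between cells. A ratio against a group at 0 used a floor of 3 counts. TMM factors came from edgeR 4.0.16 and median-ratio size factors from DESeq2 1.42.0 in R 4.3.3, for alternatives only. Shares of cells were thinned to 4000 UMIs with a fixed seed, which left out 16 naive and 1 Listeria Flt3 Dntt cells. Figures were drawn with matplotlib 3.10.9. The scripts were tested on simulated data.

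Genes named by rank are the 15 highest and 15 lowest against the Cd34 progenitors and the 10 highest and 10 lowest between libraries whose interval left out 0, without genes of the rule and without mitochondrial genome, ribosomal, sex-linked or unnamed genes, beside up to 6 members of each of 26 gene lists and members a sentence needed. The cells, the members and the lists were chosen with earlier results of these data known. The run without cells of other lineages, the run without the highest cell of each gene and the limit of 10 cell cycle UMIs were added after seeing the data. Some genes that the naming rule picked are not reported here. Gene positions are from GENCODE vM21 on mm10 and promoters from RefSeq on GRCm38.p6.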

Additional observations from a re-analysis of the deposited data

Results flagged for a closer look

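Cxcl10, H2-Eb1 and Rsad2 lay on opposite sides of the Cd34 progenitors in the 2 libraries, and that difference was not tested. Cxcl10 had log2 ratios of 0.69 in the naive library and -1.48 in the Listeria library, Rsad2 of 1.17 and -1.42, and H2-Eb1, an MHC class II chain under the count minimum of that comparison, of 1.55 and -0.86. The highest naive cell held 16.2% of the Cxcl10 UMIs and 26.7% of the Rsad2 UMIs. Among the barcodes of 1000 to under 2500 UMIs that were not kept as cells, 11 of 1218 in the naive library met the Flt3 and Dntt rule (0.903%, 0.452 to 1.61), which is above the limit that a count of 0 would allow, and 2 of 323 in the Listeria library (0.619%).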

How the results depend on the processing

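With at least 2 UMIs of Flt3 and of Dntt, the share of cells was 1.49% (naive) and 1.26% (Listeria), 206 genes were higher and 220 lower than in the Cd34 progenitors, and the mean of the 2 libraries' medians was 1.27 for lymphoid priming, -1.09 for stem cell identity, -1.87 for megakaryocyte-erythroid and 0.34 for myeloid genes. Most single ratios grew with that rule, as for Apoe, whose mean log2 ratio was -3.19. Thinning before the rule gave shares of 2.96% and 1.77%, and a Ly6d, Blnk and Ebf1 sum of 0 gave 3.45% (naive). Against Cd34 progenitors with Flt3, 73 genes were lower. With no CPM minimum 502 genes were higher and 757 lower than in Cd34 progenitors, 1394 higher and 979 lower between libraries, and the medians were 1.00 (lymphoid priming), -0.86 (stem cell identity) and -0.58 (S phase). Unthinned, the S-phase limit was met by 91.5% and 92.3% of cells and the G2 and M limit by 96.7% and 96.5%. With 10 UMIs these were 3.53% and 5.67%, and 5.49% and 5.67%. Single-gene values under an alternative were set against a limit. For ratios over the Cd34 progenitors it was the standard deviation of the 2 libraries' log2 ratios, and between libraries the counting interval. Of 480 values, 383 stayed within the limit, 94 moved past it with the sign kept and 3 reversed. The reversals were between libraries: Cxcl10 went to 0.28 and H2-Aa to 0.21 with 2 UMIs of Flt3 and Dntt, and H2-Aa to 0.058 without cells of other lineages.

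The cause of these shifts was not tested. No replicate exists for either condition, so mouse, sort, handling and sequencing cannot be told apart from the challenge, and genes of few UMIs are limited by the 1148311 UMIs of the Listeria Flt3 Dntt cells. No paired analysis was possible because each condition has 1 library.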

Other observations

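None of 14 measured glycolysis genes, 14 MYC target and ribosome biogenesis genes, 13 cytoskeletal linkers or 14 MHC class I genes passed 1.5-fold against the Cd34 progenitors in both libraries, where 2.51% of all genes were higher and 2.39% lower, so a count of 0 in lists of this size is near the overall share. Of 16 S100, annexin and galectin genes 4 were lower, among them the phospholipid-binding Anxa1 (42.9 and 42.7 CPM against 67.9 and 72.8) and Anxa5 (92.5 and 93.2 against 151 and 149.7). Slc7a1, a carrier of basic amino acids, was higher at 79.98 and 100.1 CPM against 50.6 and 59.1. Of 30 immediate early genes 3 were higher than in the Cd34 progenitors, Atf3, Nfkbia and Zfp36l1, an RNA-binding protein that restrains cell cycle genes in early B cells (185 and 157 CPM against 90.4 and 88.5).

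Between libraries, 3 of 14 MYC target and ribosome biogenesis genes were higher in the Listeria Flt3 Dntt cells and none lower, beside 5.71% and 3.59% of all genes. The median log2 ratio was 0.35 beside 0.06 over all genes. In the Cd34 progenitors 1 of 14 was higher, with a median of 0.27 beside 0.10 over all genes. The 3 higher genes of the Flt3 Dntt cells were Nop58 and Nolc1, both of small nucleolar ribonucleoprotein assembly, and Srm, spermidine synthase, at 40.1 against 21.7 CPM. The glycolytic genes Hk2 and Aldoa were higher and Ldhb lower, with Aldoa at 209 against 138 CPM and Ldhb at 24.4 against 42.9 CPM. Selplg, the P-selectin ligand used for marrow and thymus homing, was higher at 89.7 against 55.9 CPM, and Itga4 lower at 208 against 315 CPM. In the FLT3 and interleukin 7 list, the signalling genes Stat5b, Cish and Socs3 were lower, with Cish at 40.9 against 67.9 CPM.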
